A study of Mus musculus with 12 samples.

Results

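Cullins are scaffold proteins of the largest family of ubiquitin ligases, and the genes described here are the cullins Cul1, Cul2, Cul3, Cul4a, Cul4b, Cul5 and Cul7 with 3 partners of CUL1, namely Rbx1, Skp2 and Fbxw7. Of these 10 genes, 9 had a probe set of their own among the 22180 genes of the array. Where a gene had several probe sets, its value was chosen by the highest mean log2 level over the 12 arrays, which mattered only for Cul5 because it alone had 2. The only probe set of Rbx1 also names the pseudogene Rbx1-ps, so no value is given for it. Those means chose the probe sets and are not tested, and Cul1 was singled out with earlier results of these data known. All 9 genes lay above the array's 25th percentile on all 12 arrays.

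A cullin holds a substrate adaptor at its amino-terminal end and the RING protein RBX1 (RNF7 for CUL5) at its carboxy-terminal end, and RBX1 recruits the ubiquitin-charged enzyme. The ligase is switched on when the ubiquitin-like protein NEDD8 is attached to the cullin, and the COP9 signalosome removes it again. CUL1 forms the SCF ligases with SKP1 and an F-box protein such as SKP2, which marks the cell cycle inhibitor p27 for destruction, or FBXW7, which marks MYC, cyclin E and NOTCH.

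The cells were MP cells, which model in the mouse the Group 3 medulloblastomas driven by MYC, embryonal tumours of the cerebellum, and log2 expression was measured on arrays. Cells of 3 tumours, MP525, MP567 and MP570, had been taken from cerebella of NSG mice, an immunodeficient strain, and plated in neurocult medium with proliferation supplement. They received 25 nM LBH589 (panobinostat, an inhibitor of histone deacetylases) or 0.00025% DMSO, the solvent, and were lysed after 6 or 12 h, which gave 4 groups of 3 arrays with 1 array per tumour in each. The genotype of the cells and the age of the mice are not given in the sources used here, and each tumour is a single tumour, so 3 tumours are the replicates. Any pair of arrays correlated at 0.965 to 0.991. All 7 progenitor and Group 3 markers looked at, Myc among them, lay above the 25th percentile on every array. So did Atoh1, Neurod1 and Zic1 among 4 granule neuron markers, while the fourth, Gabra6, did so on none. All 4 mature neuron, 4 astrocyte, 3 oligodendrocyte, 5 microglia and 4 endothelial markers on the array also did so on every array. Passing this low threshold (5.94 to 6.04) therefore sets no cell type apart. Of the 7 progenitor and Group 3 markers, 2 were called lower in LBH589 at 6 h and 3 at 12 h. Their mean log2 level per array was 8.53 to 8.89 in LBH589 and 8.78 to 9.55 in DMSO at 6 h. At 12 h it was 8.65 to 9.11 in LBH589 and 8.86 to 9.51 in DMSO. Of the 4 granule neuron markers 1 was called lower at each time, with a mean log2 level per array of 8.33 to 8.79 in LBH589 and 8.53 to 9.61 in DMSO at 6 h, and of 8.27 to 8.87 in LBH589 and 8.48 to 9.44 in DMSO at 12 h. None of 5 microglia, 4 astrocyte and 3 oligodendrocyte markers was called at either time. Of 4 endothelial markers 1 was called higher at both times, and of 4 mature neuron markers 1 was called higher at 6 h and 1 in each direction at 12 h. Over all genes tested, 7.31% were called lower at 6 h and 9.07% at 12 h, and 8.49% and 9.13% higher. Whether these shifts bear on the cullin values was not tested, and in bulk RNA fewer cells of a type and less RNA per cell cannot be told apart.

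Cul1, the scaffold of the SCF ligases, stood about 3-fold lower in LBH589 than in DMSO at both times and in every tumour. At 6 h its log2 values were 9.36, 9.44 and 9.30 in LBH589 cultures of MP525, MP567 and MP570, against 10.90, 11.04 and 10.95 in DMSO cultures. At 12 h they were 9.21, 9.05 and 9.0 in LBH589, against 10.76, 10.89 and 10.79 in DMSO. The groups lay far apart, since the highest LBH589 value was 9.44 and the lowest DMSO value was 10.76, while the SD within any group was at most 0.11. The log2 fold change was -1.60 ± 0.10 at 6 h and -1.72 ± 0.10 at 12 h (± SE, n = 3 against 3), which is 3.02-fold and 3.30-fold lower. Of all 18652 genes tested, 21 (0.113%) had a change at or below that of Cul1 at 6 h and 29 (0.155%) at 12 h. The limma adjusted p of Cul1 was 1.4e-05 at 6 h and 1.2e-05 at 12 h, given here as a description because the gene was singled out with results known. Across all alternative settings these adjusted p reached at most 0.0155 and 0.00829, each when MP570 was left out.

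**Figure D1:**
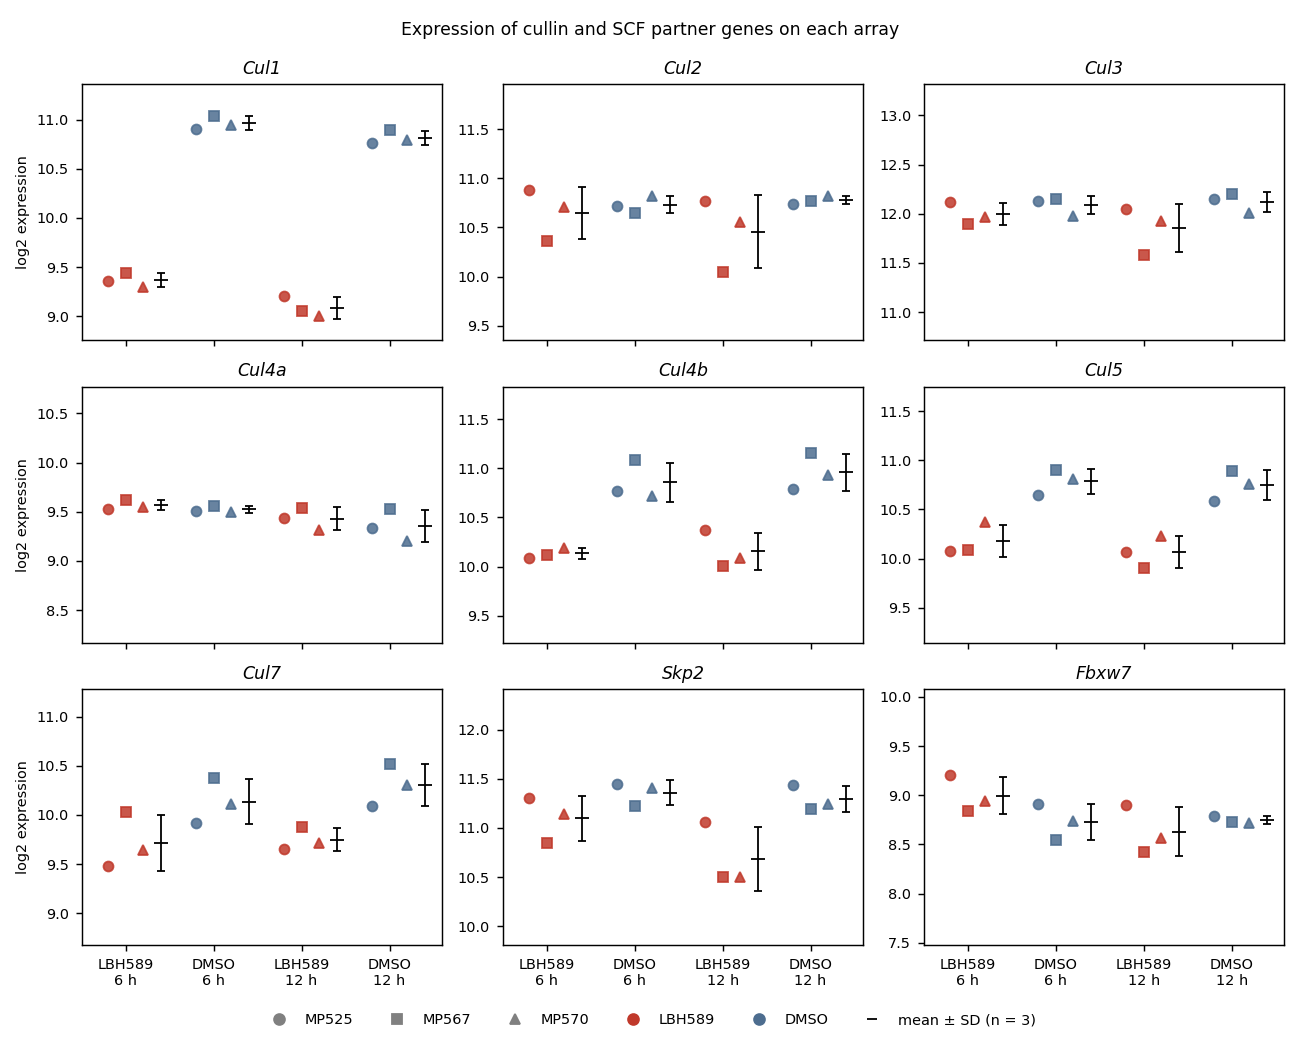
Log2 expression (vertical axis, the same span in each panel) of 9 genes in the 4 groups, with a point for each array, its shape giving the tumour, and the mean ± SD (n = 3) beside each group. The Cul1 values in LBH589 lie between 9.0 and 9.44 and all those in DMSO between 10.76 and 11.04, while the Cul4a groups overlap at both times.

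Among the other scaffolds, Cul4b and Cul5 also fell at both times. CUL4B, encoded on the X chromosome, and its close relative CUL4A carry the adaptor DDB1 with a DCAF protein that picks the substrate. Cul4b had log2 values of 10.09, 10.12 and 10.19 in LBH589 and 10.77, 11.08 and 10.72 in DMSO at 6 h (MP525, MP567 and MP570 in this order throughout). Its values at 12 h were 10.37, 10.01 and 10.09 in LBH589 and 10.79, 11.16 and 10.93 in DMSO. The groups did not overlap at either time, and the log2 fold changes were -0.72 ± 0.14 and -0.81 ± 0.14 (limma adjusted p = 0.00522 and 0.00241). Neither call held without MP570 (adjusted p = 0.0684 and 0.0655), while both held without any single array.

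Cul4a, the relative of Cul4b, showed no such change. It stood at 9.53, 9.62 and 9.55 in LBH589 and 9.51, 9.56 and 9.50 in DMSO at 6 h. Its 12 h values were 9.44, 9.54 and 9.31 in LBH589 and 9.33, 9.53 and 9.20 in DMSO. The LBH589 and DMSO ranges overlapped at both times. Its log2 fold changes were 0.05 and 0.08, with 95% intervals of -0.21 to 0.30 and -0.17 to 0.33, so a fall as large as those of Cul4b lay outside the interval at both times.

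CUL5 works with elongins B and C and the SOCS box proteins, and with RNF7 in place of RBX1. Cul5 stood at 10.08, 10.09 and 10.37 in LBH589 and 10.65, 10.90 and 10.81 in DMSO at 6 h. At 12 h it had 10.07, 9.90 and 10.23 in LBH589 and 10.59, 10.89 and 10.76 in DMSO. No LBH589 value reached the lowest DMSO value, and the log2 fold changes were -0.60 ± 0.13 and -0.68 ± 0.13 (limma adjusted p = 0.0102 and 0.00474). Its other, dimmer probe set gave -0.50 and -0.49 (limma adjusted p = 0.048 and 0.0478 over all probe sets). The 6 h call of Cul5 was lost without any whole tumour (adjusted p = 0.0689 to 0.0818) and the 12 h call without MP567 (0.0564), and both held without any single array.

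The 250 bases before the transcription start of the scaffolds that were lower at both times, Cul1, Cul4b and Cul5, are printed with those of Cul4a, which was not called, so that the regions can be read beside the values. They come from RefSeq on GRCm38.p6, run 5′ to 3′ along the gene, and capitals mark any match to CACGTG (the E-box, a site type bound by MYC with MAX), GGGCGG (the GC box), CCAAT or CCGGAAG (an ETS core), each searched on both strands.
Cul1, chr6:47453482-47453731, plus strand: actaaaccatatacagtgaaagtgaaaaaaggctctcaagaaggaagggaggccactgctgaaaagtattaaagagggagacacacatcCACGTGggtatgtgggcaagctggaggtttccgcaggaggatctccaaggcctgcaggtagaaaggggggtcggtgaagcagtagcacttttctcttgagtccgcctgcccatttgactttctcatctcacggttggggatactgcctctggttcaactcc
Cul4b, chrX:38576197-38576446, minus strand: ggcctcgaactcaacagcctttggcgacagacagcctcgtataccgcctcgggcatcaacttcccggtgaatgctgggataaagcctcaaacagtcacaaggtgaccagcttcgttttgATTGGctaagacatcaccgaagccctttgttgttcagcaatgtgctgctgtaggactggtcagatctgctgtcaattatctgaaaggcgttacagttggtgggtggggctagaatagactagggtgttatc
Cul5, chr9:53667508-53667757, minus strand: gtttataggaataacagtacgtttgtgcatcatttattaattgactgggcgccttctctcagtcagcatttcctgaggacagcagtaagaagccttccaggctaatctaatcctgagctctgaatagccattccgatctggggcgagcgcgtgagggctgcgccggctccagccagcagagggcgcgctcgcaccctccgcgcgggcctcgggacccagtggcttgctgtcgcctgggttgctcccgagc
Cul4a, chr8:13105373-13105622, plus strand: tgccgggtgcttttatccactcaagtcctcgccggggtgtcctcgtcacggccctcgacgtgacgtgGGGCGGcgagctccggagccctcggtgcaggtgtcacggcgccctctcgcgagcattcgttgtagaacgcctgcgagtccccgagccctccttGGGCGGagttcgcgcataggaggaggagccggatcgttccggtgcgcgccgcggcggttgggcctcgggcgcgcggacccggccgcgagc
RefSeq lists 3 starts for Cul1, and the window shown is that of the first.

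The window of Cul1 held a CACGTG that begins 161 bases before the start, a word found in 6.02% of the 32851 upstream windows of this length. The windows at its other 2 starts held no CACGTG but 3 and 1 GC boxes, a word found in 32.7% of all windows. That of Cul4b held a CCAAT word on the opposite strand, as did 33.8% of windows on either strand, and that of Cul5 held none of the 4 words. Cul4a, which was not called, held 2 GC boxes, so no single word of the 4 was shared by the windows shown for the genes that were lower. The C and G content of the windows shown was 50.8% for Cul1, 50.8% for Cul4b, 58.4% for Cul5 and 71.6% for Cul4a. At the other 2 starts of Cul1 it was 79.6% and 80%, above that of Cul4a. These matches are descriptions of the letters only.

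Cul7 and Skp2 fell at 12 h. CUL7 is a scaffold that pairs with the F-box protein FBXW8. Cul7 stood at 9.65, 9.88 and 9.72 in LBH589 and 10.09, 10.52 and 10.30 in DMSO at 12 h, groups that did not overlap. At 6 h it had 9.48, 10.03 and 9.64 in LBH589 and 9.92, 10.38 and 10.11 in DMSO, which overlapped although every tumour was lower. The log2 fold change was -0.55 ± 0.17 at 12 h (limma adjusted p = 0.0467) and -0.42 ± 0.17 at 6 h (0.133). In the fit with tumour as a block it was called lower at both times (adjusted p = 0.00111 at 6 h and 0.000116 at 12 h). The unblocked 12 h call was near the threshold and was lost in 14 of 24 alternatives, among them 7 of the 12 omissions of an array (highest adjusted p = 0.155, without the DMSO 12 h array of MP567), every omission of a tumour (up to 0.272, without MP570) and all 3 other scalings of the arrays.

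Skp2 encodes the F-box protein of the SCF ligase for p27. Its 12 h values were 11.06, 10.50 and 10.50 in LBH589 and 11.44, 11.19 and 11.24 in DMSO. Those at 6 h were 11.30, 10.85 and 11.14 in LBH589 and 11.45, 11.22 and 11.41 in DMSO. The groups were apart at 12 h, where the log2 change was -0.60 ± 0.16 and its limma adjusted p 0.0255, and overlapped at 6 h, where it was -0.26 ± 0.16 (0.347). With the block it was called lower at both times (adjusted p = 0.0373 at 6 h and 0.000132 at 12 h). Its unblocked 12 h call was lost without the LBH589 12 h array of MP567 (0.0854) or MP570 (0.0939), the DMSO 12 h array of MP525 (0.09) or MP570 (0.0577), and without MP567 (0.0825) or MP570 (0.231) as a whole.

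Fbxw7, the F-box gene of the SCF ligase for MYC, leaned the other way at 6 h. It had 9.21, 8.84 and 8.94 in LBH589 and 8.91, 8.54 and 8.74 in DMSO at 6 h, and each tumour was higher by 0.20 to 0.30. At 12 h it had 8.90, 8.42 and 8.57 in LBH589 and 8.79, 8.73 and 8.72 in DMSO, with MP525 higher and the other tumours lower. The log2 fold changes were 0.27 ± 0.15 (limma adjusted p = 0.282) and -0.11 ± 0.15 (0.677), and the groups overlapped at both times. With the block the 6 h difference was called higher (adjusted p = 0.0404).

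Without the block, 3 of the 9 genes were called at 6 h (Cul1, Cul4b and Cul5) and 5 at 12 h (those and Cul7 and Skp2), all lower in LBH589. Over all genes tested, 15.8% were called at 6 h and 18.2% at 12 h, with 7.31% and 9.07% called lower and 8.49% and 9.13% called higher. The median log2 fold change of the 9 genes was -0.26 at 6 h and -0.55 at 12 h, against -0.02 and 0.01 over all genes. In the fit with tumour as a block, 6 of the 9 genes were called at 6 h (5 lower and 1 higher), where 34.0% of all genes were called, 16.0% lower and 18.0% higher. At 12 h that fit called 7 of them, all lower, where 37.1% of all genes were called, 18.5% lower and 18.6% higher. Groups did not overlap for 3 genes at 6 h and 5 at 12 h, against 32.9% and 32.0% of all genes. In each of these genes all LBH589 values lay below all DMSO values, against 16.5% and 15.4% of all genes. Cul2 and Cul3 were called lower at 12 h only with the block (adjusted p = 0.048 and 0.0328). Cul4a was called in neither fit.

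**Figure D2:**
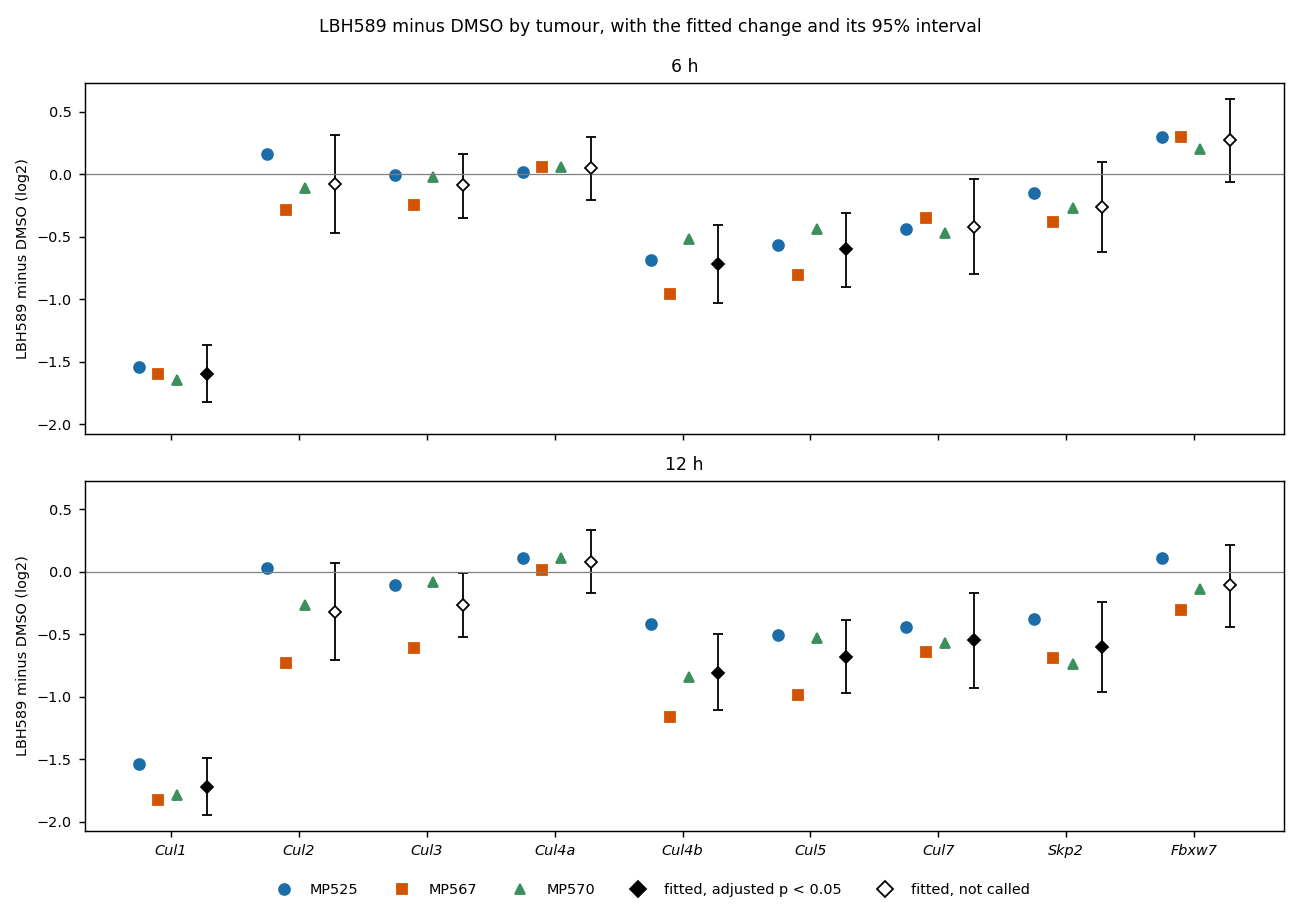
LBH589 minus DMSO on the log2 scale (vertical axis) for 9 genes at 6 h (top) and 12 h (bottom), with a coloured point for each tumour and a diamond for the fitted change with its 95% interval, filled where the adjusted p was under 0.05. The 6 differences of Cul1 lie between -1.83 and -1.54, and in Cul2 and Cul3 the MP567 point is the lowest at both times.

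The response of Cul1 was set against that of each of the other 8 genes within each tumour and time, as the difference between the 2 log2 changes. In all 6 pairs of cultures Cul1 was the gene that was further down, for every partner in the comparison. The gap was narrowest against Cul4b, at -0.89 ± 0.21 (mean ± SD over 6 tumour-time pairs, range -1.13 to -0.65), and Cul5, at -1.02 ± 0.19 (range -1.26 to -0.80). Against Cul7 it was -1.17 ± 0.06 and against Skp2 -1.23 ± 0.14. The widest gaps were those to Cul4a (-1.72 ± 0.13) and Fbxw7 (-1.74 ± 0.15), with Cul2 (-1.46 ± 0.21) and Cul3 (-1.48 ± 0.18) between. These gaps are a description with no test, since Cul1 was singled out with its fall already known, and the 6 pairs are 2 cultures of each of 3 tumours.

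**Figure D3:**
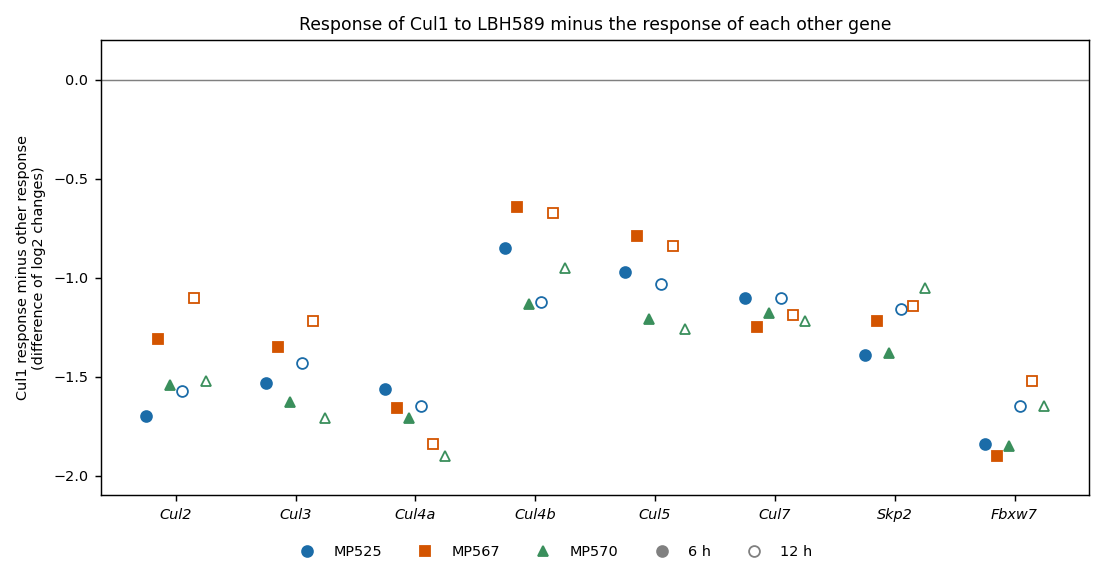
Log2 change of Cul1 minus the log2 change of each other gene (vertical axis) for 3 tumours at 6 h (filled) and 12 h (open). All points are below 0, and those for Cul4b are the nearest to it, between -1.13 and -0.65.

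The size of the LBH589 effect was called as differing between tumours for Cul2 and Cul3, though neither call held in every alternative. CUL2 carries the von Hippel-Lindau protein through elongins B and C, and CUL3 takes BTB domain proteins such as KEAP1 as adaptors. Cul2 had log2 values of 10.88, 10.36 and 10.71 in LBH589 and 10.72, 10.65 and 10.82 in DMSO at 6 h. At 12 h they were 10.77, 10.05 and 10.55 in LBH589 and 10.74, 10.77 and 10.82 in DMSO. The difference in MP567 was -0.29 at 6 h and -0.73 at 12 h, while that in MP525 was 0.16 and 0.03 and that in MP570 -0.11 and -0.27.

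Cul3 stood at 12.12, 11.90 and 11.97 in LBH589 and 12.13, 12.15 and 11.98 in DMSO at 6 h. At 12 h it stood at 12.05, 11.58 and 11.93 in LBH589 and 12.15, 12.20 and 12.01 in DMSO. MP567 differed by -0.25 and -0.61, against -0.01 and -0.11 in MP525 and -0.02 and -0.08 in MP570. The limma F test of the treatment by tumour terms gave adjusted p = 0.0169 for Cul2 and 0.0428 for Cul3, where 4.35% of all genes were called. The Cul2 call was lost without the 12 h array of MP525 or MP567 in either treatment (adjusted p = 0.0623 to 0.135) and without MP525 or MP567 as a whole (0.181 and 0.506). The Cul3 call was lost in 15 of 22 alternatives, and without MP567 its adjusted p was 0.990.

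Cul4b and Cul5 were also lowest relative to DMSO in MP567, by -0.96 and -1.16 for Cul4b and by -0.81 and -0.99 for Cul5, but the difference between tumours was not called (limma adjusted p = 0.0911 and 0.0741). For Cul1 the means over both times were -1.54 in MP525, -1.72 in MP567 and -1.72 in MP570, and the test of their difference gave an adjusted p of 0.588. With 3 tumours this compares these tumours and no wider class.

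Levels averaged over the 4 groups also differed between tumours for 4 of the 9 genes, Cul2, Cul7, Skp2 and Fbxw7. Their limma adjusted p were 0.0455, 0.00115, 0.00549 and 0.0185 (F test with the 4 groups in the fit), where 37.4% of all genes were called. For Cul2 the values spanned 10.65 to 10.82 in DMSO and 10.05 to 10.88 in LBH589, so its call does not show a difference in DMSO. Cul7 was higher in MP567 by 0.42 ± 0.07 than in MP525 and by 0.26 ± 0.07 than in MP570 (log2 difference ± SE, 4 arrays per tumour). Skp2 was lower in MP567 by -0.37 ± 0.08 and in MP570 by -0.24 ± 0.08 than in MP525, and Fbxw7 by -0.32 ± 0.08 and -0.21 ± 0.08. These averages include the LBH589 arrays. In DMSO, Skp2 stood at 11.45, 11.22 and 11.41 at 6 h and 11.44, 11.19 and 11.24 at 12 h. Fbxw7 in DMSO stood at 8.91, 8.54 and 8.74 at 6 h and 8.79, 8.73 and 8.72 at 12 h. A difference between tumours in DMSO alone was not tested. Cul1 differed between tumours by at most 0.10 and was not called (adjusted p = 0.560). Of these calls, that of Cul7 was lost only without MP567 (0.135) and that of Skp2 without MP525 (0.206) or MP567 (0.0548). The Fbxw7 call was lost in 8 of 22 alternatives and the Cul2 call in 13, both also under either centring of the arrays, on reference genes or on the array median.

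No level was called as changed between 6 and 12 h without the block. Within DMSO, 0 of the 9 genes were called (limma, 0 at an unadjusted p under 0.05), where 0.0214% of all genes were called (0.311% with the block, 0.220% higher), and their log2 changes lay between -0.17 for Cul4a and 0.16 for Cul7. Within LBH589, 0 of the 9 were called, as was 0.00% of all genes, while 3 had an unadjusted p under 0.05, as had 1415 of all 18652 genes. These 3 were Skp2 at -0.41, Fbxw7 at -0.37 and Cul1 at -0.28, and every tumour was lower at 12 h for each of them. In DMSO Cul1 was also lower at 12 h in every tumour, with differences of -0.15, -0.15 and -0.16 (limma unadjusted p = 0.166). With the block, Skp2 was called lower at 12 h in LBH589 (adjusted p = 0.0408), where 1.99% of all genes were called, 1.27% lower and 0.724% higher. The change of the LBH589 effect between the times was called for 0 of the 9 genes in limma with or without the block, where 0.0107% of all genes were called with the block. Without it 0 of the 9 had an unadjusted p under 0.05, as had 490 of all 18652 genes, and with it 2 did, as had 1729 of all genes. For Skp2 it was -0.34 ± 0.23 and for Fbxw7 -0.38 ± 0.21, with 95% intervals of -0.85 to 0.17 and -0.85 to 0.08.

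Other genes of the cullin ligase system were taken from lists chosen with earlier results of these data known. Of 22 tested adaptors, F-box proteins and ubiquitin-conjugating enzymes of the CUL1 ligases, 2 rose and 1 fell at 6 h, and 1 rose and 3 fell at 12 h, with median log2 changes of -0.07 and -0.16. The share called without the block was 13.6% at 6 h and 18.2% at 12 h, near the 15.8% and 18.2% of all genes. With the block 4 rose and 8 fell at 6 h, and 4 rose and 9 fell at 12 h. Over all genes that fit called 34.0% and 37.1%. Fbxo5, which encodes EMI1, an inhibitor of the anaphase-promoting complex, stood at 9.01, 9.41 and 8.49 in LBH589 against 9.91, 10.21 and 9.92 in DMSO at 12 h. All 3 LBH589 values were below all DMSO values, and the log2 change was -1.04 ± 0.23 (limma adjusted p = 0.00846). That call was lost without MP525 (0.0922) or MP570 (0.0769). At 6 h the Fbxo5 change was -0.50 ± 0.23 (limma adjusted p = 0.179, and 0.00387 with the block), lower in all 3 tumours.

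Ube2r2, a ubiquitin-conjugating enzyme of the CDC34 type that serves SCF ligases, fell by 0.61 ± 0.10 on the log2 scale at 6 h and by 0.64 ± 0.10 at 12 h (limma adjusted p = 0.00261 and 0.0016). At 6 h this call was lost without MP525 (0.0569) or MP570 (0.0648). Fbxo31, an F-box gene whose human protein targets cyclin D1, rose by 0.65 ± 0.10 and 0.54 ± 0.10 (limma adjusted p = 0.00128 and 0.00291), the 12 h call being lost without MP570 (0.0657). Fbxl20 had log2 changes of 0.56 ± 0.17 at 6 h (limma adjusted p = 0.0477) and 0.51 ± 0.17 at 12 h (0.0617, and 0.00228 with the block). The call at 6 h did not hold in 17 of 24 alternatives (highest adjusted p = 0.245, without MP570). Skp1, which joins F-box proteins to CUL1, had log2 changes of 0.07 and 0.11 (limma adjusted p = 0.663 and 0.387). Rnf7, the RING partner of CUL5, had -0.37 and -0.17 (0.436 and 0.733), and was called lower at 6 h with the block (0.0288). Both were picked out after their values were seen, because of their place in the complexes.

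Of 49 tested genes listed for the other cullins, 3 rose and 5 fell at 6 h and 3 rose and 4 fell at 12 h. Their medians were 0.06 and 0.01. With the block 12 rose and 13 fell at 6 h, and 10 rose and 14 fell at 12 h. Most are adaptors, but the list also holds the cullin gene Cul9 and the enzyme genes Ube2l3, Arih1 and Arih2. Cul9 had log2 changes of 0.04 and 0.12 (limma adjusted p = 0.913 and 0.669). The share called without the block was 16.3% and 14.3%, against 15.8% and 18.2% of all genes. Of all genes, 34.0% and 37.1% were called with the block. Keap1, the CUL3 adaptor that holds NRF2 in check, stood at 7.95, 8.46 and 8.27 in LBH589 against 8.84, 9.09 and 9.38 in DMSO at 6 h. These groups did not overlap, and Keap1 had log2 changes of -0.88 ± 0.19 at 6 h (limma adjusted p = 0.0104) and -0.55 ± 0.19 at 12 h (0.0738), called at both times with the block (1.4e-05 and 0.000548). Its 6 h call was lost without MP570 (0.142). Among the CUL3-binding genes of the RHOBTB family, Rhobtb1 fell and Rhobtb2 rose. Their log2 changes were -0.79 ± 0.09 and -0.60 ± 0.09 for Rhobtb1 (limma adjusted p = 0.000344 and 0.00119), and 0.65 ± 0.12 and 0.50 ± 0.12 for Rhobtb2 (0.00352 and 0.0122). The Rhobtb2 call was lost at 6 h without MP525 (0.0632), and at 12 h without any whole tumour (up to 0.125) or the DMSO 12 h array of MP567 (0.0503). Kbtbd2, another BTB adaptor gene of CUL3, fell at 12 h by 0.66 ± 0.15 (limma adjusted p = 0.00967, and 0.0827 and 0.0833 without MP567 and MP570). At 6 h the Kbtbd2 change was -0.40 ± 0.15 (limma adjusted p = 0.0918, and 0.0106 with the block).

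None of the 10 tested genes of NEDD8 conjugation was called without the block (limma), against 15.8% and 18.2% of all genes. Their medians were 0.14 and -0.01. An unadjusted p under 0.05 was found for 3 at 6 h and 2 at 12 h, as for 5262 and 5724 of all 18652 genes. With the block 3 were higher and 1 lower at 6 h, and 2 lower at 12 h, against 34.0% and 37.1% of all genes called. Of 12 subunits of the COP9 signalosome and CAND exchange factors, 1 fell at 6 h and 1 at 12 h, with medians of -0.08 and -0.18 and 8.33% called at each time, against 15.8% and 18.2% of all genes. With the block 5 fell at each time and 1 rose at 12 h, where 34.0% and 37.1% of all genes were called. Cops7a, a COP9 subunit, changed by -0.64 ± 0.11 at 6 h (limma adjusted p = 0.00295, and 0.0643 and 0.0666 without MP525 and MP570) and -0.13 ± 0.11 at 12 h (0.497). Cand1, which exchanges the adaptors bound to CUL1, fell at 12 h by 0.51 ± 0.15 (limma adjusted p = 0.0349), a call lost in 8 of 24 alternatives (highest adjusted p = 0.238, without MP567). At 6 h the Cand1 change was -0.42 ± 0.15 (limma adjusted p = 0.0827, and 0.00577 with the block). Of 21 tested substrates of the SKP2, FBXW7 or BTRC ligases, 5 rose and 2 fell at 6 h, and 6 rose and 3 fell at 12 h, with medians of 0.16 and 0.21 (8 and 5, and 9 and 7, with the block). The share called without the block was 33.3% and 42.9%, against 15.8% and 18.2% of all genes, for a list chosen with earlier results known. Of all genes, 34.0% and 37.1% were called with the block. Foxo1, a transcription factor gene whose protein is a SKP2 substrate, rose by 1.67 ± 0.19 and 1.51 ± 0.19 (limma adjusted p = 0.000246 and 0.000368). Cdkn1a, which encodes the cell cycle inhibitor p21, had log2 changes of 1.76 ± 0.49 and 1.70 ± 0.49 (limma adjusted p = 0.0312 and 0.0321), and Ccnd1, the cyclin D1 gene, had -1.04 ± 0.28 and -1.06 ± 0.28 (0.0254 and 0.0196). The Cdkn1a calls were each lost in 5 of 24 alternatives and the Ccnd1 calls in 7 at 6 h and 5 at 12 h, with adjusted p up to 0.216 and 0.236. With the block both were called at both times (limma adjusted p = 3.3e-06 and 3.6e-06 for Cdkn1a, 0.00134 and 0.000977 for Ccnd1). Notch1, a substrate of FBXW7, had log2 changes of 1.07 ± 0.29 and 0.94 ± 0.29 (limma adjusted p = 0.0256 and 0.0398). Its calls were lost in 5 of 24 alternatives at 6 h (highest adjusted p = 0.164, without MP567) and 7 at 12 h (0.205, without MP567). Notch1 was called at both times with the block (limma adjusted p = 9.2e-06 and 2.2e-05). These are transcripts, and the levels of the proteins that the ligases act on were not measured.

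**Figure D4:**
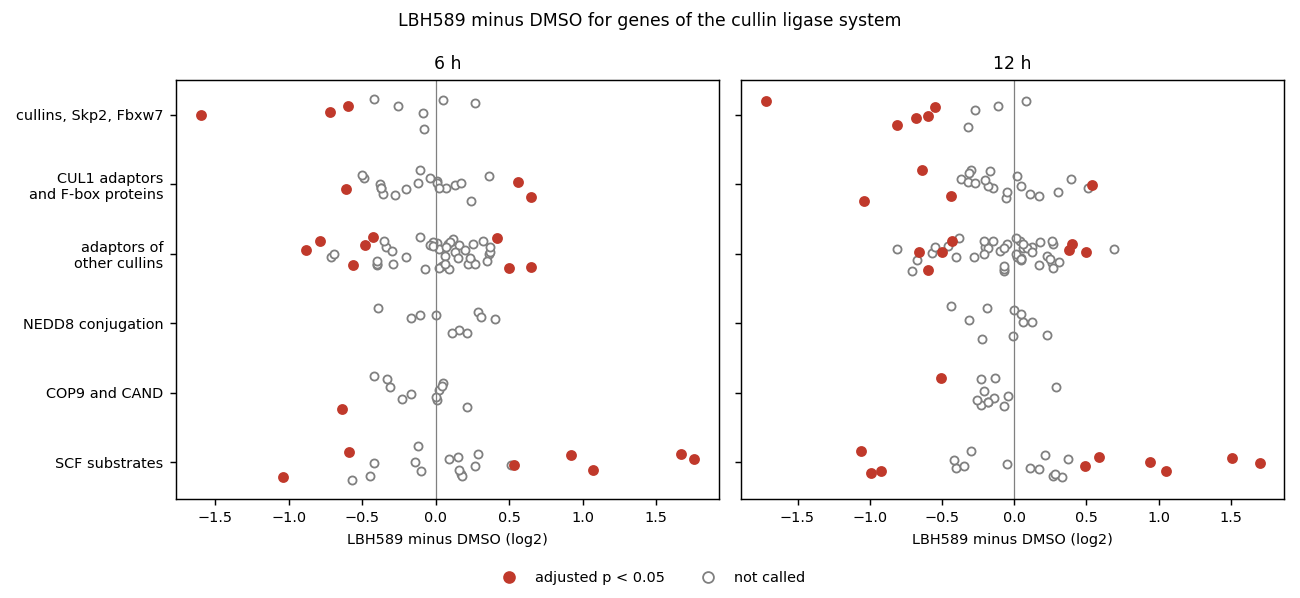
LBH589 minus DMSO on the log2 scale (horizontal axis) at 6 h and 12 h for the 9 genes described and for the 5 lists of the cullin ligase system, a point per gene, red where the adjusted p was under 0.05. Cul1 is the lowest of all points at both times, at -1.60 and -1.72. None of the 10 genes of NEDD8 conjugation is red, where 15.8% and 18.2% of all genes were called.

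The 5 genes whose log2 values over the 12 arrays were nearest to those of Cul1, once each gene was centred on its own mean, were Nsmaf, Cers2, N4bp2, Aven and Rcbtb2. Their root mean square differences from Cul1 were 0.118, 0.136, 0.160, 0.168 and 0.170 on the log2 scale. Nsmaf, which encodes a factor associated with activation of neutral sphingomyelinase, had log2 changes of -1.37 ± 0.12 at 6 h and -1.60 ± 0.12 at 12 h. Cers2, a ceramide synthase gene, had -1.50 ± 0.10 and -1.48 ± 0.10. N4bp2 had -1.51 ± 0.15 and -1.81 ± 0.15, Aven, a regulator of apoptosis, had -1.38 ± 0.12 and -1.62 ± 0.12, and Rcbtb2 had -1.48 ± 0.11 and -1.46 ± 0.11. These likenesses were ranked over all tested genes and describe these arrays only.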

How the data were processed

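Total RNA was labelled with biotin and hybridised to a whole-transcript array, 1 array per culture, per the labels' protocols. The authors deposited a table of log2 expression, a value for every probe set and array, whose range of 1.50 to 14.47 is the basis for the log base. Agilent Feature Extraction 10.7.3.1 is the tool named, per the submitters' processing notes, and the sources used here name no method of summarisation, background correction or normalization. Medians of the arrays lay between 7.10 and 7.21, and no further scaling was applied. Precision is limited by how many arrays there are.

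Of 41345 probe sets, 23521 named 1 gene, 1814 several and 16010 had no gene symbol in the platform annotation, and only the first kind was used. Symbols were updated through Entrez numbers for 23328 of them. A gene was tested if it lay above the array's 25th percentile on at least 3 arrays, which kept 18652 of 22180 genes. The 4 group means were fitted with limma 3.58.1 in R 4.3.3 (eBayes with trend, 8 residual degrees of freedom), with two-sided tests, Benjamini-Hochberg adjustment over all tested genes, and a call at an adjusted p under 0.05. Intervals of 95% come from the same fit. Tumours were compared by F tests in fits that hold the 4 groups. The F test of the LBH589 effect by tumour takes the 6 h and 12 h cultures of a tumour as repeats of its effect. The fit without a block and the F tests were run on simulated data with known changes. Noise was drawn independently for each array, so these runs cover neither the blocked fit nor correlation between arrays of a tumour.

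By the labels every group holds an array of each tumour, so arrays of a tumour are paired. Deviations from the group means correlated at 0.450 to 0.805 within tumours (18 pairs) and at -0.51 to -0.058 between arrays of other tumours and groups. The fit reported first has no block, and one that blocks on the tumour, with 6 residual degrees of freedom, is given where it changes a call. Whether other cultures of a tumour would vary alike is unknown, since each condition was cultured once per tumour.

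The genes described, the lists and the tests were chosen with earlier results of these data known. All members with a probe set are named in the comparison of LBH589 with DMSO, and only some in those of times and tumours. Of each list up to 4 called genes with the largest change are named, with Skp1, Rnf7 and Cul9 besides. The 9 comparisons planned for Cul1 became 8 without Rbx1, and the permutation test planned for them is not reported because Cul1 was singled out with its fall known. Listed genes without a probe set naming them alone were not analysed here. Other alternatives were a random block, 3 other scalings, 2 other filters, other treatments of probe sets, and omission of each array and tumour. Apart from the random block, these were fitted without a block.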

Additional observations from a re-analysis of the deposited data

Results flagged for a closer look

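The LBH589 effect differed between tumours in the limma F test for Cul2 (adjusted p = 0.0169) and Cul3 (adjusted p = 0.0428). Averaged over both times, the Cul2 difference between LBH589 and DMSO was -0.51 in MP567, 0.10 in MP525 and -0.19 in MP570, and the Cul3 difference was -0.43, -0.06 and -0.05 in the same tumours. In each tumour only 1 culture was measured for each treatment and time.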

How the results depend on the processing

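Over the 24 alternatives, Cul1 stayed called lower at both times, with log2 changes of -1.63 to -1.56 at 6 h and -1.81 to -1.67 at 12 h. The count of the 9 genes called at 6 h was 3, and 6 with the tumour as a fixed block, and it lay between 1 and 3 without an array or a tumour. At 12 h the count was 5, and between 2 and 5 without an array or a tumour. Within LBH589, the fixed block called 1 gene between 6 and 12 h. Over all genes, 6333 were called with the fixed block and 2948 without it at 6 h, and 6928 and 3395 at 12 h. Genes whose level differed between tumours numbered 4, and 2 after centring on medians or on reference genes, and 2 to 4 without an array or a tumour. Those whose LBH589 effect differed between tumours numbered 2, and 1 after centring on medians, on reference genes or without a filter, and 0 to 2 without an array or a tumour. Scaling on reference genes gave 1921 higher and 1358 lower calls at 12 h, against 1703 and 1692 as deposited. No scaling turned the direction of a called gene.

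Small changes that were not called turned sign when an array or a tumour was left out. Cul2 at 6 h then ranged from -0.20 to 0.07. For the LBH589 effect at 12 h minus that at 6 h, Cul4a ranged from -0.04 to 0.12, Cul4b from -0.26 to 0.03, Cul5 from -0.16 to 0.02 and Cul7 from -0.25 to 0.02. For 12 h against 6 h in DMSO, Cul3 ranged from -0.02 to 0.09, Cul5 from -0.11 to 0.04 and Fbxw7 from -0.08 to 0.10. For 12 h against 6 h in LBH589, Cul2 ranged from -0.35 to 0.01, Cul4b from -0.11 to 0.10 and Cul7 from -0.08 to 0.19. The causes were not tested. With 1 tumour left out, the gap between Cul1 and the other genes lay between -1.78 and -0.82 for the cullins, between -1.25 and -1.20 for Skp2 and between -1.75 and -1.73 for Fbxw7.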
